A study of Mus musculus with 8 samples.

Results

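A set of 10 genes of fatty acid uptake, intracellular fatty acid transport and lipid storage were followed in the tongue of a mouse model of oculopharyngeal muscular dystrophy. They were chosen by name, as genes that carry out these steps, and are Cd36, Lpl, Fabp3, Fabp4, Acsl1, Plin1, Plin4, Pnpla2, Lipe and Adipoq. All 10 were found among the 19857 genes of the deposited count table. The study compared female mice aged 12 months that were either wild type (WT, 4 mice) or carried the PABPN1 A17 allele on 1 chromosome (PABPN1A17/+, written A17/+ here, 4 mice), with no treatment named for either group. RNA was isolated from frozen sections of the median tongue and counted with mcSCRB-seq, which primes at the poly(A) tail and counts unique molecular identifiers (UMIs), so that amplified copies of a molecule are counted once. PABPN1 is a nuclear protein that binds poly(A) tails, and oculopharyngeal muscular dystrophy is a late-onset disease of eyelid, throat and tongue muscle caused by a lengthened alanine stretch in this protein. The labels name no strain, Cre or promoter and no control allele shared by both groups. Whole tongue sections hold muscle fibres, capillaries, connective tissue and epithelium, so a smaller number of cells of a type and less RNA per cell cannot be told apart.

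Muscle takes up fatty acids that lipoprotein lipase (Lpl) frees from circulating triglyceride at the capillary wall. The scavenger receptor Cd36 helps them across endothelial and muscle membranes, fatty acid binding proteins carry them in the cytosol, and acyl-CoA synthetases such as Acsl1 activate them for oxidation or storage. Perilipins coat the stored droplets, and the lipases encoded by Pnpla2 and Lipe release the fatty acids again. Fabp3 is the heart and muscle carrier, whereas Fabp4 is made by fat cells, capillary endothelium and macrophages. Plin1, which coats the droplets of fat cells, and Adipoq, the hormone adiponectin, are made chiefly by fat cells.

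The carriers are related genes, and their coding sequences differ at many positions. Exon 3 of Fabp3 (chr4:130313954-130314055, plus strand), Fabp4 (chr3:10205241-10205342, minus strand) and, as the relative that was measured beside them, Fabp5 (chr3:10015472-10015573, plus strand) is wholly coding and 102 bases long in each gene. The mm10 sequences, taken from GENCODE M21, are shown because the largest differences below fall on Fabp3 and Fabp4, and capitals mark the bases of Fabp4 and Fabp5 that differ from Fabp3.
Fabp3: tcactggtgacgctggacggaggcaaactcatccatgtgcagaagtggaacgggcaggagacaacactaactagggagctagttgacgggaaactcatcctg
Fabp4: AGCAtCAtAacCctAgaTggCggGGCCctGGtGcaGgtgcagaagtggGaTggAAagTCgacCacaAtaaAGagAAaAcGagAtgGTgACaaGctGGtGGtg
Fabp5: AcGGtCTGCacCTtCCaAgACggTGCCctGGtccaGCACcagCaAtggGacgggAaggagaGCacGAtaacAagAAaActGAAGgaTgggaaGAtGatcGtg
In this exon 43 bases of Fabp4 and 45 of Fabp5 differed from Fabp3. Over exons 2 and 3 together, 275 bases without a gap, Fabp3 and Fabp4 were 65.8% identical, and their longest identical run was 14 bases. The processed pseudogene Fabp3-ps1, in contrast, was 99.3% identical to the 402 bases of the Fabp3 coding sequence with its stop codon. It had a single count over all 8 libraries, so few reads were assigned to it, and the share of Fabp3 reads that could have come from either copy is not known from the counts.

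The libraries held 205696 to 485326 UMIs. Levels are CPM, UMI counts scaled to a common library size with the TMM correction, given as mean ± SD over 4 libraries. Genotypes were compared with edgeR's quasi-likelihood test over 5066 genes, with Benjamini-Hochberg adjusted p-values and a threshold of 0.05. Log2 fold changes are A17/+ minus WT, ± SE. Over all genes tested, 8.94% passed, 6.34% higher (321 genes) and 2.61% lower (132 genes) in A17/+ (279 and 289 genes with library totals in place of TMM, 257 and 236 with a trend on transcript length removed), and the median log2 fold change was 0.01. Markers of muscle fibres (22 of 24 listed genes in the table) summed to 93768 to 126740 CPM in WT and 128980 to 150120 CPM in A17/+. Of the 20 tested, 12 were higher and 0 lower by edgeR (11 higher by DESeq2, 9 by limma-voom), with a median log2 fold change of 0.73, so muscle fibre markers moved with the genes below, and their part in those values was not tested. WT 1 alone held many transcripts of salivary gland genes (2066 CPM against at most 59.9 in any other library). WT 1 and A17/+ 1 resembled each other (Pearson r of log2 CPM across genes 0.93, with genes not independent), and the 8 tested genes among the 10 were also fitted without both.

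Of the 10 genes, 5 rose in A17/+ (Fabp3, Fabp4, Lpl, Plin4 and Cd36), 0 fell, 3 did not pass the test (Acsl1, Pnpla2 and Lipe) and 2 had too few counts to be tested (Plin1 and Adipoq). Both cytosolic carriers changed most, 8.69-fold for Fabp3 and 6.39-fold for Fabp4, and the genes of uptake and the perilipin Plin4 about 1.83-fold to 2.26-fold. The lipases and the synthetase had no detectable change. The test kept a gene only if it reached 24.6 CPM, before TMM scaling, in 4 libraries. Fabp4 reached this in 0 WT and 4 A17/+ libraries and Fabp3 in 1 WT and 4 A17/+ libraries. These carriers therefore entered the test through the group in which they were high, and the count of 5 is a description. With no filter on low counts both remained past the threshold, at 3.04 and 2.61 on the log2 scale (edgeR adjusted p = 6.12e-18 and 1.74e-09). The main fit gave 3.12 and 2.68 on the same libraries, so these smaller p-values belong to another fit and add no evidence.

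**Figure D1:**
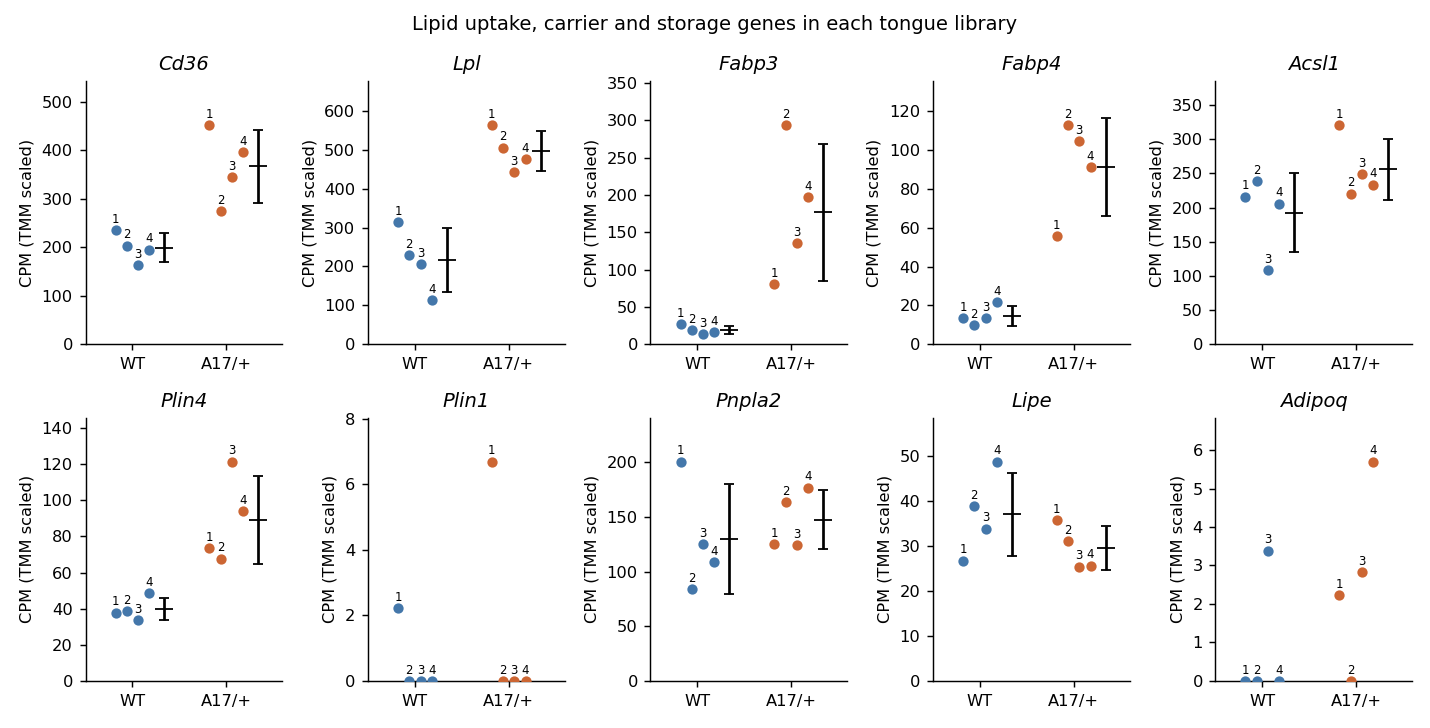
Level of each of the 10 genes (CPM, TMM scaled, linear axes from 0) in the 4 WT and 4 A17/+ libraries, numbered by replicate; black bars give mean and SD where the counts allow. All 4 A17/+ points lie above all 4 WT points for Cd36, Lpl, Fabp3, Fabp4 and Plin4, whereas Plin1 and Adipoq stay within a few counts of 0.

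Genes of uptake came first. Lpl (ENSMUSG00000015568, mm10 chromosome 8, 68880491 to 68907448, plus strand) stood at 314, 229, 206 and 114 CPM in WT 1 to 4. In A17/+ 1 to 4 it stood at 564, 506, 444 and 476 CPM. The groups did not overlap, which held for 14.6% of all genes tested (8.57% with A17/+ higher), and the spread among WT libraries was wider than among A17/+ libraries. The mean rose from 216 ± 82.4 to 497 ± 51.2 CPM (SD, n = 4 libraries each), a log2 fold change of 1.17 ± 0.22 (edgeR adjusted p = 0.00553). Without WT 4, the lowest library, the log2 fold change was 0.94 and the gene still passed (adjusted p = 0.0169).

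Cd36 (ENSMUSG00000002944, chromosome 5, 17781690 to 17888801, minus strand), the membrane receptor for long-chain fatty acids, had 236, 204, 162 and 195 CPM in WT 1 to 4. It had 453, 274, 345 and 396 CPM in A17/+ 1 to 4. The lowest A17/+ library was close to the highest WT library, and the groups did not overlap. The mean rose from 199 ± 30.3 to 367 ± 76.0 CPM, a log2 fold change of 0.87 ± 0.20 (edgeR adjusted p = 0.0108). Without WT 3, the lowest WT library, the log2 fold change was 0.77 and the gene missed the threshold (edgeR adjusted p = 0.0560). In that fit the genes past the threshold also fell from 453 to 210. Without A17/+ 1 the log2 fold change was lower, 0.71, and the gene passed (edgeR adjusted p = 0.0293).

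Promoters were searched for the letters bound by PPAR factors, nuclear receptors that are known to activate many genes of fatty acid use, and the full repeat was found in none of the windows searched for these genes. RefSeq promoter windows (GRCm38.p6, 250 bases before to 50 after a start site) were present for 8 of the 10 genes, in 10 windows. Fabp4 and Lpl were not among them. The sites of these factors are known as repeats of AGGTCA with 1 base between the copies. That repeat, on either strand, was in 0 of the 10 windows and in 0.0396% of all 32841 windows, and a looser form built from AGGNCA in 0 and 0.381%. A single AGGTCA, which the repeat contains, was in 1 of the 10 windows, that of Cd36, and in 16.3% of all windows, so the members held it no more often than the background. The stretch that holds it (chr5:17836027-17836146, minus strand) lies before a start site inside the Cd36 span given above. It is shown with the match, read on the other strand, in capitals.
Cd36 upstream: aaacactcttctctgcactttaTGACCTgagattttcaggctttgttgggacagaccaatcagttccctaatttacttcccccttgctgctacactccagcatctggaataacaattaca
The match is a description of these letters and not a measured site.

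Fabp3 (ENSMUSG00000028773, chromosome 4, 130308595 to 130315463, plus strand) showed the largest difference of the 10. It had 12, 6, 4 and 3 counts in WT 1 to 4, which gave 26.7, 19.4, 13.5 and 16.3 CPM. In A17/+ 1 to 4 it had 36, 104, 48 and 69 counts, or 80.3, 294, 136 and 197 CPM. Every A17/+ library lay above every WT library, A17/+ 1 was the lowest of its genotype, and A17/+ libraries varied far more than WT libraries. The mean rose from 19.0 ± 5.70 to 177 ± 91.4 CPM, a log2 fold change of 3.12 ± 0.41 with a 95% interval from 2.25 to 3.99 (edgeR adjusted p = 0.00187). It ranked 37 of 5066 genes from the highest log2 fold change. The last 81 bases of Fabp3 overlap Zcchc17 on the opposite strand, and the strand setting of the counting is not given in the sources used here. Zcchc17 itself did not pass (log2 fold change −0.24, adjusted p = 0.760).

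Fabp4 (ENSMUSG00000062515, chromosome 3, 10204088 to 10208576, minus strand) had 6, 3, 4 and 4 counts in WT 1 to 4, which gave 13.4, 9.70, 13.5 and 21.7 CPM. It had 25, 40, 37 and 32 counts in A17/+ 1 to 4, or 55.7, 113, 105 and 91.2 CPM. The groups did not overlap, and A17/+ 1 was again the lowest of its genotype. The mean rose from 14.6 ± 5.06 to 91.1 ± 25.2 CPM, a log2 fold change of 2.68 ± 0.35 with a 95% interval from 1.94 to 3.41 (edgeR adjusted p = 0.00187), rank 67 of 5066. Few molecules stand behind the WT values of both carriers, and this number limits how exactly their folds are known. Fabp5, the epidermal carrier, ran from 326 to 477 CPM in WT and from 268 to 477 CPM in A17/+, with overlapping groups and a log2 fold change of −0.03 ± 0.19 (adjusted p = 0.948, −0.70 to 0.11 over the alternatives).

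Both carriers have short transcripts, 823 and 896 nt, whereas the other tested members run from 2212 nt (Pnpla2) to 5756 nt (Plin4). Short transcripts were higher as a class in A17/+. Of 291 tested genes with a median transcript under 1000 nt, 34.4% passed as higher, with a median log2 fold change of 0.84, against 4.63% and −0.01 for 4770 longer genes. Transcripts under 1000 nt took 8.48%, 6.40%, 6.98% and 6.70% of all UMIs in WT 1 to 4. Their share was 8.35%, 12.5%, 10.4% and 11.5% in A17/+ 1 to 4, and the groups overlapped. A17/+ 1, the A17/+ library lowest for both carriers, was also the lowest of its genotype in this share. With a trend on transcript length removed from each library the log2 fold change was 2.23 for Fabp3 and 1.91 for Fabp4, and both still passed (edgeR adjusted p = 0.000694 and 0.00151). Under this correction Lpl had 1.182, Plin4 1.25 and Cd36 0.82, and all 3 still passed.

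**Figure D2:**
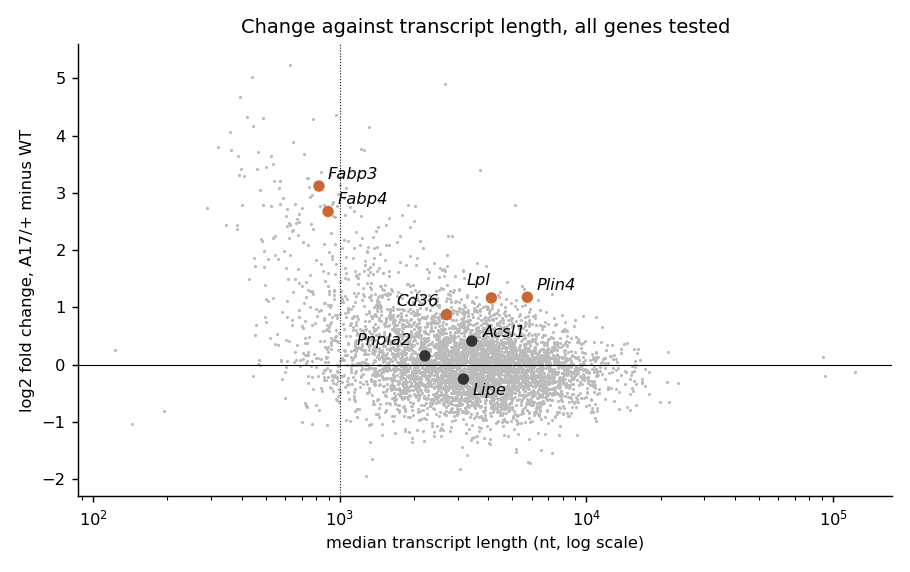
Log2 fold change (A17/+ minus WT) of each tested gene against its median transcript length in nt on a log axis; orange marks members past the threshold, black the other tested members, and the dotted line 1000 nt. Fabp3 (3.12) and Fabp4 (2.68) lie among short transcripts, many of which were high, while Lpl and Plin4 lie above most genes of their length.

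Acsl1 (ENSMUSG00000018796, chromosome 8, 46471037 to 46536051, plus strand), the synthetase that couples long-chain fatty acids to coenzyme A, is like Fabp3 a gene of muscle fibres, and it had another pattern. It stood at 216, 239, 108 and 206 CPM in WT 1 to 4 and at 321, 220, 249 and 234 CPM in A17/+ 1 to 4. The groups overlapped, with A17/+ 2 and A17/+ 4 below WT 2. Means were 192 ± 57.8 and 256 ± 44.9 CPM, and the log2 fold change of 0.41 ± 0.23 did not pass (edgeR adjusted p = 0.283). Its 95% interval, −0.07 to 0.90, leaves room for a fold of 0.950 to 1.87.

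Fabp3 and Acsl1 could be set against each other within each library, where library size cancels. Transcript length does not cancel, at 823 nt for Fabp3 and 3429 nt for Acsl1. With the length trend removed their log2 fold changes were 2.23 and 0.41. The part of length in this ratio and in those that follow was not tested. The log2 ratio of Fabp3 to Acsl1 counts was −3.02, −3.62, −3.00 and −3.66 in WT 1 to 4. It was −2, 0.42, −0.87 and −0.25 in A17/+ 1 to 4, so every A17/+ library was above every WT library. The 2 genes of the muscle class summed to 243, 259, 122 and 222 CPM in WT and to 401, 514, 384 and 430 CPM in A17/+. Most of that gap came from Fabp3. In the sum of the muscle fibre markers titin (Ttn) had the largest part, with a mean of 63220 of 115100 CPM in WT. Its log2 fold change was 0.13 ± 0.18 (edgeR adjusted p = 0.693), so a ratio to this sum is mostly a ratio to Ttn. Per 10000 CPM of the sum, Fabp3 stood at 1.16 to 2.17 CPM in WT and 5.68 to 22.8 CPM in A17/+, without overlap. Relative to myoglobin (Mb), the oxygen store of muscle fibres, the gap was smaller, with 4.48 to 5.80 Fabp3 counts per 100 Mb counts in WT and 6.82 to 10.7 in A17/+. Mb itself rose, by 2.46 ± 0.40 on the log2 scale (edgeR adjusted p = 0.00796, 1.49 to 3.04 over the alternatives, the lowest with the length trend removed). Fabp3 against Fabp4 gave log2 ratios of 1.00, 1.00, 0.00 and −0.42 in WT and 0.53, 1.38, 0.38 and 1.11 in A17/+. These overlapped, so the ratio of the muscle carrier to the vascular and fat-cell carrier differed by less than the spread between libraries. The difference between the folds was not tested.

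**Figure D3:**
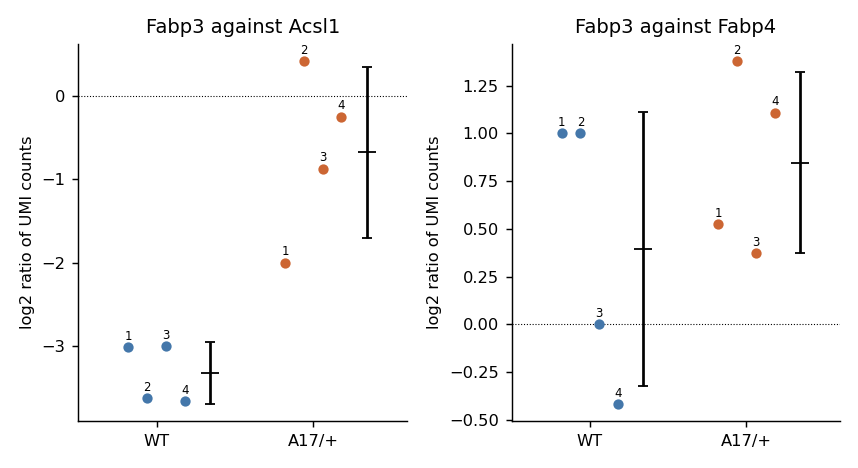
Log2 ratio of UMI counts of Fabp3 to Acsl1 (left) and of Fabp3 to Fabp4 (right) in each library, numbered by replicate, with mean and SD in black. The ratio to Acsl1 is between −3.66 and −3.00 in WT and between −2 and 0.42 in A17/+, and the ratio to Fabp4 overlaps between genotypes.

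In the vascular and fat-cell class, the genes besides Fabp4 had few counts. Plin1 (ENSMUSG00000030546, chromosome 7, 79720218 to 79732903, minus strand) had 1 count in WT, in WT 1, and 3 in A17/+, all in A17/+ 1. Adipoq (ENSMUSG00000022878, chromosome 16, 23146536 to 23158028, plus strand) had 1 count in WT, in WT 3, and 1, 0, 1 and 2 counts in A17/+ 1 to 4. The ratio of Adipoq counts, A17/+ to WT and scaled by library, was 3.29 with a 95% counting interval from 0.325 to 162, which covers counting error only. Two-sided exact permutation tests of mean CPM over the 70 assignments of the libraries (smallest possible p = 0.0286) gave p = 0.371 for Adipoq and p = 1 for Plin1. Both genes lay at or near the limit that a count of 0 allows, 3 counts or 6.69 to 16.3 CPM per library, so a difference was not detectable at this depth. Summed with Fabp4, the class stood at 15.6, 9.70, 16.9 and 21.7 CPM in WT and at 64.7, 113, 107 and 96.9 CPM in A17/+, nearly all of it Fabp4.

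Other defining genes of fat cells were scarce too. Cfd, the serum protease adipsin, and Retn, the hormone resistin, had 0 counts in WT and 2, 0, 4 and 3 and 2, 0, 4 and 2 counts in A17/+ 1 to 4, and Cidec, a droplet protein of fat cells, had 2 counts per genotype. Lep was not analysed here. Plin1, Adipoq, Cfd, Retn and Cidec together summed to 2, 0, 2 and 0 counts over the WT libraries. Over A17/+ 1 to 4 they summed to 9, 0, 10 and 7. The other A17/+ libraries each held more of these counts than any WT library. A17/+ 2 held 0 of them and had the highest Fabp4, 113 CPM. The part of fat cells in the Fabp4 values was not tested. Of 22 listed fat-cell markers 20 were in the table and 4 were tested, of which 0 passed by edgeR, DESeq2 or limma-voom and 0 had an unadjusted p under 0.05. Their sum ran from 349 to 537 CPM in WT and from 240 to 661 CPM in A17/+, led by the lipid synthesis genes Scd1, Fasn and Acaca, which many tissues make.

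Capillary endothelium also makes Fabp4 and Cd36, macrophages also make Fabp4, Cd36 and Lpl, and the markers of both had higher sums in A17/+. All 24 endothelial markers were in the table, and of 13 tested 0 passed by edgeR, DESeq2 or limma-voom (1 at an unadjusted p under 0.05), with a median log2 fold change of 0.26. They summed to 996, 950, 954 and 926 CPM in WT 1 to 4 and to 1124, 1166, 1105 and 1189 CPM in A17/+ 1 to 4, without overlap. Fabp4 per 100 CPM of that sum was 1.34, 1.02, 1.42 and 2.34 in WT and 4.96, 9.69, 9.46 and 7.67 in A17/+, and the groups stayed apart. The mean sum went from 957 to 1146 CPM, a smaller change than that of Fabp4, so this ratio mainly follows Fabp4 itself. Lpl per 100 CPM of the sum also stayed apart (12.3 to 31.5 in WT, 40.0 to 50.2 in A17/+), whereas Cd36 overlapped (17.02 to 23.7 and 23.5 to 40.3). The 16 macrophage markers, of which 0 of 3 tested passed by any of these tools (1 at an unadjusted p under 0.05), summed to 455, 213, 173 and 222 CPM in WT and to 457 to 548 CPM in A17/+, led by the lysozyme gene Lyz2. The part of endothelium and of macrophages in the values of Fabp4, Lpl and Cd36 was not tested. Globin and other red blood cell transcripts summed to 20.1 to 32.3 CPM in WT and 100 to 1333 CPM in A17/+, and their part was not tested either.

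**Figure D4:**
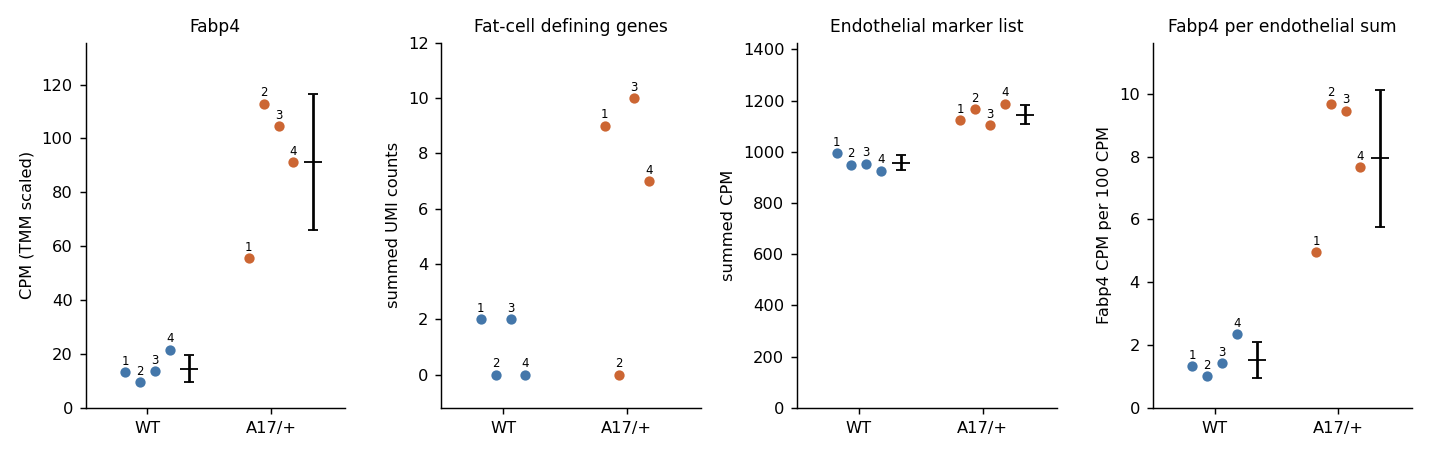
Fabp4 level (CPM), summed UMI counts of 5 fat-cell defining genes (Plin1, Adipoq, Cfd, Retn, Cidec), summed CPM of 24 endothelial markers, and Fabp4 per 100 CPM of the endothelial sum, per library and numbered by replicate, with mean and SD in black where the counts allow. A17/+ 2 has the highest Fabp4 and 0 counts of the fat-cell defining genes, the other A17/+ libraries have 7 to 10, and the WT libraries 0 to 2.

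Among the genes of the droplet, Plin4 (ENSMUSG00000002831, chromosome 17, 56100591 to 56109803, minus strand), a perilipin of fat cells and of muscle, stood at 37.9, 38.8, 33.8 and 48.8 CPM in WT 1 to 4. It stood at 73.6, 67.8, 121 and 94.1 CPM in A17/+ 1 to 4, without overlap. The mean rose from 39.8 ± 6.34 to 89.2 ± 24.3 CPM, a log2 fold change of 1.178 ± 0.27 (edgeR adjusted p = 0.0132). The call was the least firm of the 5, with an adjusted p of 0.0566 without WT 3 (log2 fold change 1.09), 0.0594 without A17/+ 3 (1.00) and 0.0955 with all libraries thinned to the smallest (0.88). Its last 17 bases overlap Hdgfl2 on the opposite strand, which had a log2 fold change of −0.57 and did not pass (adjusted p = 0.0883).

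The lipases did not follow. Pnpla2 (ENSMUSG00000025509, chromosome 7, 141455198 to 141460743, plus strand), which encodes the first lipase of triglyceride breakdown, had 201, 84.0, 125 and 108 CPM in WT 1 to 4 and 125, 164, 124 and 177 CPM in A17/+ 1 to 4. WT 1 was the highest of all 8 libraries, and the groups overlapped. The log2 fold change was 0.15 ± 0.26 (edgeR adjusted p = 0.766, 95% interval −0.40 to 0.70), and it was −0.055 without WT 2 and 0.55 without both libraries numbered 1 (adjusted p = 0.145). Lipe (ENSMUSG00000003123, chromosome 7, 25379527 to 25398710, minus strand), the hormone-sensitive lipase, had 26.7, 38.8, 33.8 and 48.8 CPM in WT and 35.7, 31.1, 25.4 and 25.7 CPM in A17/+, from 9 to 16 counts per library. It gave −0.25 ± 0.32 (adjusted p = 0.707) and −0.52 without both libraries numbered 1 (adjusted p = 0.365), and its interval from −0.92 to 0.42 covers folds of 0.528 to 1.33.

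**Figure D5:**
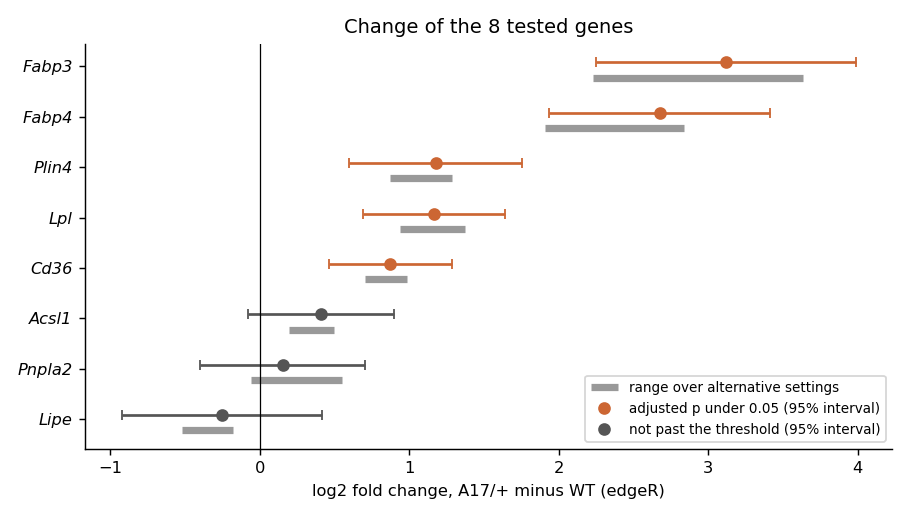
Log2 fold change (A17/+ minus WT, edgeR) of the 8 tested genes with 95% intervals; orange marks an adjusted p under 0.05, and grey bars the range over the alternative settings. Fabp3 and Fabp4 lie above 1.9 under every setting run, and the intervals of Acsl1, Pnpla2 and Lipe include 0.

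Lists of other genes of the same pathway were counted against the background of 6.34% higher and 2.61% lower. Of 28 listed genes of fatty acid uptake and activation, 27 were in the table and 13 were tested, 1 was higher and 0 lower, with a median of 0.12. The one was Got2, the mitochondrial aspartate aminotransferase that has also been described as a fatty acid binding protein of the plasma membrane, which rose from 91.5 ± 9.69 to 226 ± 62.7 CPM (log2 fold change 1.30 ± 0.24, edgeR adjusted p = 0.00486). Gpihbp1, which holds Lpl on the capillary wall, was too low to be tested, with 1 to 4 counts per WT library and 4 to 8 per A17/+ library. Of 32 listed genes of droplets and triglyceride turnover, 31 were in the table and 12 were tested, 1 was higher and 1 lower, with a median of 0.13. Fitm2, which helps droplets form at the endoplasmic reticulum, rose from 21.8 ± 6.51 to 52.7 ± 4.19 CPM (1.19 ± 0.31, edgeR adjusted p = 0.0211). It stood at 31.2, 19.4, 20.3 and 16.3 CPM in WT 1 to 4 and at 48.0 to 58.0 CPM in A17/+. Given the filter level of 24.6 CPM, it entered the test through A17/+, where it was high, and its call is a description. It passed in 11 of 19 alternatives, not with no filter on low counts (edgeR adjusted p = 0.0583) and not by DESeq2 or limma-voom. Nor did it pass without WT 2, WT 3, WT 4, A17/+ 3 or A17/+ 4 (edgeR adjusted p from 0.0612 to 0.0790). Faf2, which takes part in protein degradation at the endoplasmic reticulum and on droplets, fell from 256 ± 37.2 to 159 ± 23.7 CPM (−0.68 ± 0.19, edgeR adjusted p = 0.0381), and passed in 12 of 20 alternatives, not by limma-voom or with the replicate block (adjusted p = 0.0789), nor without WT 2, WT 3, WT 4, A17/+ 2, A17/+ 3 or A17/+ 4 (adjusted p from 0.0599 to 0.111). Got2 passed in all 20. Fitm1, the muscle relative of Fitm2, did not reach the filter level in 4 libraries and was not tested. It had 5, 2, 1 and 2 counts in the WT libraries and 6, 41, 34 and 37 in A17/+ 1 to 4, so A17/+ 1 lay near WT. Plin2, the droplet coat of many tissues, had 13 counts in WT and 37 in A17/+, and was chosen after its counts were seen, as were Gpihbp1 and Fitm1. Plin5, the droplet coat of oxidative tissue, also chosen so, had 0.35 ± 0.36 (adjusted p = 0.590, −0.07 to 0.77 over the alternatives).

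Regulators of fatty acid use and fat storage, 28 genes with 13 tested, had 0 members higher or lower by edgeR, DESeq2 or limma-voom (1 at an unadjusted edgeR p under 0.05) and a median of −0.03. Those with the smallest p were Prkaa2, a catalytic chain of the energy sensor AMPK, with 0.87 ± 0.36 (adjusted p = 0.140, and 1.36 with adjusted p = 0.0181 without both libraries numbered 1), and Adipor1, a receptor for adiponectin, with 0.45 ± 0.24 (adjusted p = 0.246).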

How the data were processed

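The authors deposited raw UMI counts per Ensembl gene for 8 tongue libraries and, per library, log2 values for 10709 genes. The submitters' processing notes name cutadapt 2.10, STAR 2.7.5a, UMI-tools 1.1.1, HTSeq and mm10, and settings, strand and annotation release are not given in the sources used here. In each library the deposited log2 values fitted log2 of a linear function of the counts, as log2 CPM with a prior count gives (largest error 5.01e-09). They were used in 1 alternative.

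Symbols, positions and median transcript lengths came from GENCODE M21 by identifier, for 19677 of 19857 genes. Genes were filtered with filterByExpr (minimum count 10, minimum total 15), scaled by TMM and fitted with edgeR 4.0.16 in R 4.3.3 (robust quasi-likelihood, genotype only). SE is the log2 fold change divided by the root of F. The fit was tested on simulated counts. The smallest library had 205696 UMIs, so a gene at 10 CPM rests on few molecules. Libraries were separate mice per the labels, which give no batch.

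The members and the lists of related genes and markers were chosen with earlier results of these data known. Named genes are the 10 members and, from the 3 lists of related pathway genes, those past the threshold or, where none passed, the 2 with the smallest p. Marker lists are given by sums and counts, with at most 3 of their most abundant genes named, and Lep, Retn, Cfd and Cidec for fat cells. Fabp5, Mb, Fabp3-ps1 and the overlapping genes were added for comparison, and Gpihbp1, Fitm1, Plin2 and Plin5 after their values were seen. Alternatives used DESeq2 1.42.0 and limma 3.58.1 besides edgeR.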

Additional observations from a re-analysis of the deposited data

How the results depend on the processing

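Fabp3, Fabp4 and Lpl kept their direction and passed the threshold under all 20 alternatives, with log2 fold changes of 2.23 to 3.63, 1.91 to 2.84 and 0.94 to 1.38. Cd36 missed it in 1 and Plin4 in 3, as given beside them. The alternatives reuse the same libraries and are not independent evidence. Fabp3 and Fabp4 entered the main test through A17/+, where they were high. Acsl1 (0.19 to 0.50) and Lipe (−0.52 to −0.18, 19 alternatives, not tested when thinned) never passed, nor did Pnpla2, which ran from −0.055 (without WT 2) to 0.44 (without WT 1) when single libraries were left out. The number of members that passed was 5, 4 with counts thinned to the smallest library, and 3 to 5 when single libraries were left out. The count of 453 genes became 853 with no filter on low counts, 228 with limma-voom, 797 with limma-trend on the deposited log2 values and 1025 without both libraries numbered 1, and it ran from 210 (without WT 3) to 890 (without WT 1) when single libraries were left out, with 247 and 232 without A17/+ 3 and 4 and 771 without A17/+ 1. Library totals in place of TMM moved the median of all genes by −0.12, with 279 higher and 289 lower in place of 321 and 132, and removing the length trend gave 257 and 236. No filter moved the median by 0.14. The cause was not tested. Same-numbered libraries did not deviate together (r from −0.16 to 0.07), so the numbers were not taken as pairs. With the replicate number as a block, 410 genes passed and the same number of members, 5.

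Depth limits Plin1, Adipoq and the WT values of Fabp3 and Fabp4, which rest on 0 to 12 counts per library.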
